A study of Mus musculus with 11 samples.

Results

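HIV integration sites at the 7 mouse genes of the Fos and Jun families (Fos, Fosb, Fosl1, Fosl2, Jun, Junb and Jund) were described across 11 libraries, each made with a different fused protein. The 7 genes were taken by symbol from the mm9 gene models, among 37252 annotated genes of chromosomes 1 to 19 and X, and a gene's window was its model with 5 kb on each side. The 7 windows spanned 118 kb and held 858 of the 831994 distinct sites of the series, a distinct site being 1 combination of library, chromosome, position and strand. All libraries came from LEDGF-/- mouse embryonic fibroblasts (MEFs) of the C57BL/6 strain. The cells were electroporated with a plasmid for a protein joined to LEDGF-IBD, were infected with HIV after 24 hours and were grown for 3 further days. LEDGF-IBD is the integrase-binding domain of LEDGF, the host protein that normally ties HIV integrase to chromatin, so in cells lacking LEDGF a fused protein can direct integration to the chromatin it occupies. The fused proteins were NELFA, NELFB, NELFCD and NELFE (the NELF group, 4 libraries), SPT5 (1 library), and the Integrator group of 6 libraries, made up of INTS3, INIP, NABP1 and NABP2 (the SOSS complex, in which the Integrator subunit INTS3 takes part) and of INTS9 and INTS11. With 1 library for each protein, subunits of the same complex served as the replicates, so p-values measured only the spread between fused subunits, which may be technical, and SPT5 was not tested. The absence of LEDGF, the HIV infection and the IBD were shared by every library, and no library without a fused factor was analysed here.

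AP-1 is a dimeric transcription factor built of a Fos protein with a Jun protein, or of 2 Jun proteins, that binds DNA through basic leucine zippers. Fos, Fosb, Jun and Junb are immediate early genes, which growth factors and stress switch on within minutes, and Fos is a textbook gene with RNA polymerase held just past its start. NELF and DSIF, of which SPT5 is a subunit, hold the polymerase there, while Integrator, with INTS11 as its RNA endonuclease and INTS9 as the partner of INTS11, cleaves RNA of polymerases near the start and is needed for the induction of immediate early genes in mammalian cells.

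The 250 bases before the annotated start are shown for Fosl2, whose sites are described by zone further on, and for Fos and Jun, at which SPT5 had more sites per 100000 than any other library. They are from the mm9 genome on the gene's strand, 5′ to 3′, at chr5:32438595-32438844 (plus strand), chr12:86814590-86814839 (plus strand) and chr4:94718914-94719163 (minus strand). Capitals mark a TATA box (TATAAA) or a CCAAT box (CCAAT).
Fosl2: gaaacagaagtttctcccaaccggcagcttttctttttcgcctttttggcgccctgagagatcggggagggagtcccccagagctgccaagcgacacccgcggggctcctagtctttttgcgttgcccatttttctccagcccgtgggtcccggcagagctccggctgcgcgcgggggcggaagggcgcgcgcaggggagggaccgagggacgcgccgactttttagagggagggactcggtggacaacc
Fos: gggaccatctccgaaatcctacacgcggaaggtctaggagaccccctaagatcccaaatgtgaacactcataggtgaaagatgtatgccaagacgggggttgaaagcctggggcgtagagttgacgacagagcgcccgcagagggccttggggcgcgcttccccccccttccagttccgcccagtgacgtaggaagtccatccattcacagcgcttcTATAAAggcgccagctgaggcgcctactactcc
Jun: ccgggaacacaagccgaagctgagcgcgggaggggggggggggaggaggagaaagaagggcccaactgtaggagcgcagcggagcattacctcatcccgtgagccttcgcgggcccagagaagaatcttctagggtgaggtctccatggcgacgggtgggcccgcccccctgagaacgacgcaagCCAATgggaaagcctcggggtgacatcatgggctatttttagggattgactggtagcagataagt
The TATA box of Fos lay 33 to 28 bases before the start and the CCAAT box of Jun 65 to 61 bases before it, and Fosl2 had neither. Searched on both strands over the same length, TATAAA was found in 12.3% and CCAAT in 35.0% of 22350 protein-coding promoters. The GC box GGGCGG, found in 39.6% of them, occurred in 5 of the 7 members, with Junb and Jund lacking it. Junb held both TATAAA (30 to 25 bases before its start) and CCAAT (66 to 62 bases before it), and no member held the AP-1 element TGACTCA, which 3.86% of promoters held. Only these exact letters were searched, so a variant of an element, at Jun or elsewhere, would not have been found. Fosl2 took 1 NELF, 4 SPT5 and 2 Integrator sites in its 250 bases, while those of Fos and Jun took none from any library.

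Library size ranged between 18753 distinct sites (NELFE) and 197069 (INTS9), and every level is given per 100000 sites of its library. The shallowest libraries were those of NELF, with 18753 to 41265 sites, INIP with 24907 and INTS11 with 33939, and among the NELF libraries 1 site is worth 2.42 (NELFCD) to 5.33 (NELFE) per 100000. All 4 NELF libraries were sequenced on 1 flow cell that held no other library, and SPT5 alone on another, so the effect of a protein family cannot be told apart from that of its flow cell. Fibroblast marker windows (9 genes: Col1a1, Col1a2, Col3a1, Fn1, Vim, Thy1, S100a4, Pdgfra and Pdgfrb) together held 8.11 (NELF), 12.1 (SPT5) and 4.17 (Integrator) times the sites that an even spread over the genome gives. Windows of hepatocyte, neuron, blood and epithelial markers held 0.249 to 2.03 times that number in the 3 groups. The 9 fibroblast markers differed widely, from 0.0457 (Col3a1) to 1.16 (S100a4) sites per 100000 per kb in the mean of the 11 libraries.

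Together the 7 windows took 134.8 ± 28.5 sites per 100000 in the NELF libraries (SD, n = 4), 194 in SPT5 and 82.5 ± 42.1 in the Integrator libraries (SD, n = 6), against 4.62 for an even spread. The libraries had 129.5 (NELFA), 174 (NELFB), 128 (NELFCD), 106.7 (NELFE), 194 (SPT5), 137 (INTS3), 48.2 (INIP), 109.9 (NABP1), 111 (NABP2), 33.0 (INTS9) and 56.0 (INTS11) sites per 100000. SPT5 was the highest and INTS9 the lowest of the 11, and the NELF and Integrator ranges overlapped, with INTS3 above 3 of the 4 NELF libraries. INIP, with 12 sites, had a 95% Poisson interval of 24.9 to 84.2, and NELFE, with 20 sites, one of 65.1 to 165, both covering counting error only. Libraries run on 2 flow cells gave 109.8 and 109.6 (NABP1), 91.3 and 115 (NABP2), and 34.0 and 24.5 (INTS9). The flow cell that NABP1, NABP2 and INTS9 shared gave 109.6, 115 and 34.0. It held most sites of each of these libraries, so its values largely restate their totals. The 95% Poisson intervals of NABP2 (91.9 to 143) and NABP1 (90.6 to 132) on it overlapped.

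**Figure D1:**
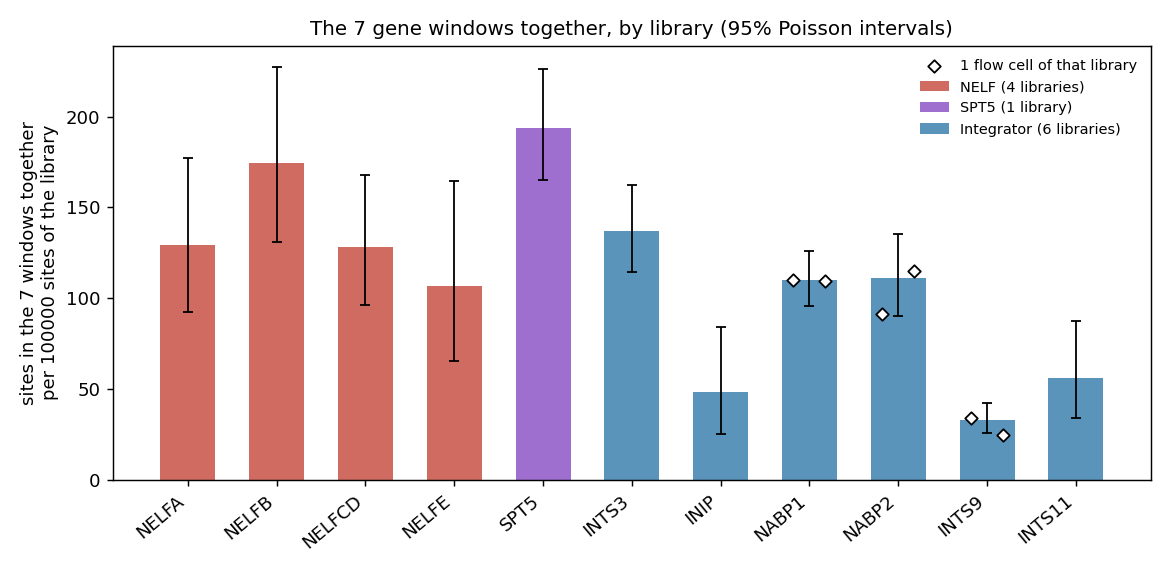
Distinct sites in the 7 windows together per 100000 sites of each library, with 95% Poisson intervals as bars and diamonds for single flow cells of libraries run on 2. SPT5 stands highest at 194, and INTS9 lowest at 33.0, with 34.0 and 24.5 on its 2 flow cells.

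Junb codes for a Jun protein that is a weaker activator than Jun and often opposes it, and its NELF mean was 37.2 sites per 100000, against 19.2 in Integrator. Junb (ENSMUSG00000052837.4, chr8:87500811-87502617, minus strand, 1 exon) had 43.2 (13 sites, NELFA), 54.9 (17, NELFB), 24.2 (10, NELFCD) and 26.7 (5, NELFE) sites per 100000, 35.3 in SPT5 (29), and 33.2 (32, INTS3), 16.1 (4, INIP), 25.5 (48, NABP1), 23.8 (21, NABP2), 5.07 (10, INTS9) and 11.8 (4, INTS11). NELFB and NELFA lay above every Integrator library, the other two NELF libraries lay within the SOSS range, and all 4 SOSS libraries lay above INTS9 and INTS11.

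Jund, the family member usually made at a steady level rather than induced, had a NELF mean of 26.2 sites per 100000, against 12.03 in Integrator. Jund (ENSMUSG00000071076.4, chr8:73221638-73224515, plus strand, 1 exon) had 33.2 (10 sites, NELFA), 29.1 (9, NELFB), 26.7 (11, NELFCD) and 15.997 (3, NELFE) sites per 100000, 43.9 in SPT5 (36), and 14.5 (14, INTS3), 4.01 (1, INIP), 16.98 (32, NABP1), 19.3 (17, NABP2), 5.58 (11, INTS9) and 11.8 (4, INTS11). Of the NELF libraries, 3 were above all Integrator libraries and NELFE, on 3 sites, was not, while SPT5 was the highest of the 11.

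Jun, the founding member of the family, had 58 sites in all (ENSMUSG00000052684.3, chr4:94715725-94718913, minus strand, 1 exon). Its levels were 16.6 (5 sites, NELFA), 9.69 (3, NELFB), 9.69 (4, NELFCD) and 5.33 (1, NELFE) per 100000, 25.6 in SPT5 (21), and 4.15 (4, INTS3), 8.03 (2, INIP), 4.78 (9, NABP1), 7.94 (7, NABP2), 1.01 (2, INTS9) and 0 (INTS11, where 0 of 33939 sites allows up to 8.84 per 100000). SPT5 was again highest, with a Poisson interval of 15.8 to 39.1 that holds the NELFA value but no Integrator value, and NELFE fell among the SOSS libraries.

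Among the Fos genes, Fosl1 and Fosl2 (Fra-1 and Fra-2, Fos proteins without the strong activation domains of Fos) had 237 and 148 sites. Fosl1 (ENSMUSG00000024912.5, chr19:5447703-5455945, plus strand, 4 exons) had 9.96 (3 sites, NELFA), 38.8 (12, NELFB), 38.8 (16, NELFCD) and 26.7 (5, NELFE) sites per 100000, 37.8 in SPT5 (31), and 46.7 (45, INTS3), 8.03 (2, INIP), 34.0 (64, NABP1), 34.0 (30, NABP2), 12.2 (24, INTS9) and 14.7 (5, INTS11). INTS3 was the highest library and NELFA lay below INTS9, so the groups overlapped over most of their range. Its neighbour Ccdc85b, whose model overlaps the 3′ part of the Fosl1 model on the other strand, starts within the window, and so does Fibp.

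Fosl2 (ENSMUSG00000029135.9, chr5:32438845-32460204, plus strand, 4 exons) had 16.6 (5 sites, NELFA), 38.8 (12, NELFB), 26.7 (11, NELFCD) and 15.997 (3, NELFE) sites per 100000, 30.5 in SPT5 (25), and 23.9 (23, INTS3), 8.03 (2, INIP), 19.6 (37, NABP1), 17.006 (15, NABP2), 6.09 (12, INTS9) and 8.84 (3, INTS11). NELFB and NELFCD lay above all Integrator libraries, and INIP, INTS9 and INTS11 below all NELF libraries.

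Fos itself, the founding member of its family, had 56 sites in all (ENSMUSG00000021250.7, chr12:86814840-86818223, plus strand). Its levels were 6.64 (2 sites, NELFA), 3.23 (1, NELFB), 2.42 (1, NELFCD) and 10.7 (2, NELFE) per 100000, 18.3 in SPT5 (15), and 8.31 (8, INTS3), 4.01 (1, INIP), 6.37 (12, NABP1), 7.94 (7, NABP2), 2.03 (4, INTS9) and 8.84 (3, INTS11). SPT5 was the highest, but its Poisson interval of 10.2 to 30.2 holds the NELFE value, and the NELF and Integrator means of 5.74 and 6.25 differed by less than either SD (3.76 and 2.71). Fosb (ENSMUSG00000003545.2, chr7:19888070-19895394, minus strand), the nearest relative of Fos, had 18 sites, 2 of NELF, 2 of SPT5 and 14 of Integrator, with none in NELFB, NELFCD, INIP and INTS11. Its means of 2.16, 2.44 and 1.84 per 100000 were all below what 3 sites are worth in those 4 libraries, where a count of 0 allows up to 7.27 to 12.04, so no difference was detectable at this depth.

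**Figure D2:**
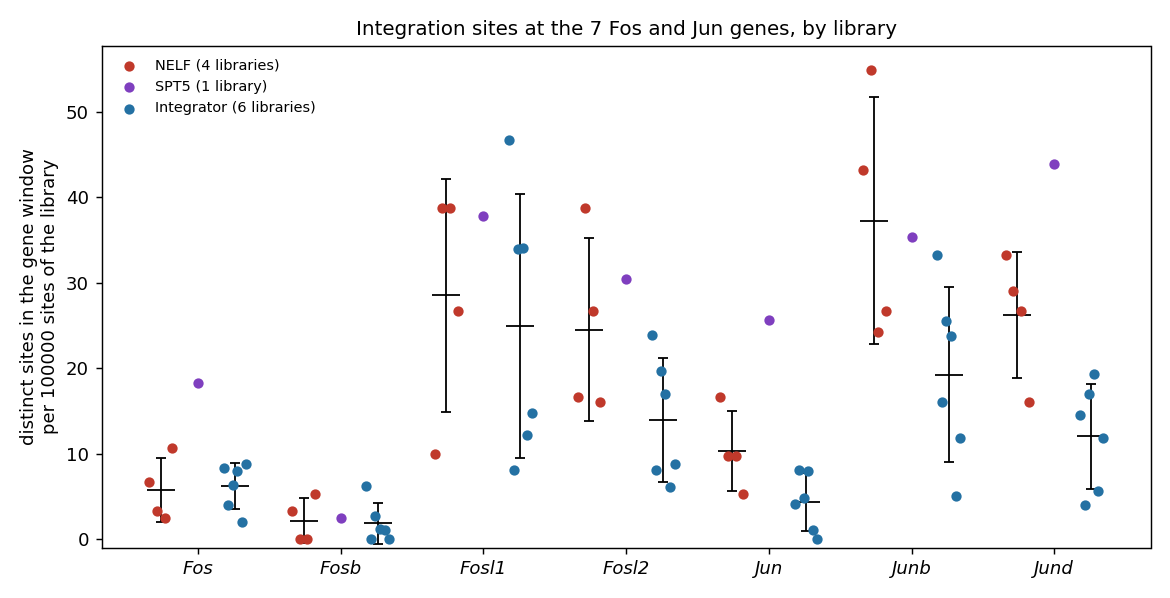
Distinct sites per 100000 sites of the library in each gene window, 1 point per library, with the mean and SD of the 4 NELF and 6 Integrator libraries in black. SPT5 is above the other 10 libraries at Fos (18.3), Jun (25.6) and Jund (43.9), and at Fosl1 the 4 NELF points (9.96 to 38.8) lie within the range of the Integrator points (8.03 to 46.7).

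SPT5 exceeded the other 10 libraries at 3 of the 7 members (Fos, Jun and Jund). Of the 1139 genes with at least 10 sites per library on average over the NELF and Integrator libraries, 8.78% had SPT5 highest, and of the 4 members among them 1 did, Jund. INTS9 was the lowest library at Fos, Fosl2 and Junb. Among the 1139 genes it was lowest at 4.92%, and of the 4 members among them at Fosl2 and Junb, Fos not being one of the 1139.

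Per kilobase of window, Junb ranked 65th of 22350 protein-coding genes in the NELF mean (3.15 sites per 100000 per kb), 54th in SPT5 (2.99) and 4th in the Integrator mean (1.63). Fosl1 ranked 149th, 178th and 16th, and Jund 114th, 29th and 80th. The median protein-coding gene had 0.0479, 0.0425 and 0.0523 sites per 100000 per kb in the same 3 groups. The remaining members ranked 435th (Fosl2), 432nd (Jun), 1117th (Fos) and 5455th (Fosb) in the NELF mean, 694th, 200th, 369th and 5414th in SPT5, and 514th, 954th, 460th and 5762nd in the Integrator mean. Fosb was the member closest to an ordinary gene, at 0.125, 0.141 and 0.106 per kb.

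The NELF libraries were compared with the Integrator libraries in a limma fit of log2(sites per 100000 + 1) over the 1139 genes, with Benjamini-Hochberg adjustment over all of them. In the fit 7.55% of genes were higher and 0.351% lower in NELF, and none of the 4 members that passed the minimum was called in either direction. The 7 members thus divide into 4 tested, 0 called, and 3 (Fos, Fosb and Jun) below the minimum. Jund differed by a log2 of 1.19 ± 0.44 (SE; adjusted p = 0.118), Junb by 1.04 ± 0.45 (adjusted p = 0.179) and Fosl2 by 0.84 ± 0.43 (adjusted p = 0.271), all with NELF above Integrator. Fosl1 differed by 0.27 ± 0.50 (adjusted p = 0.796), a value that was 0.012 without INIP and 0.69 without NELFA. With the SOSS libraries alone on the Integrator side, Jund differed by 1.02, Junb by 0.54, Fosl2 by 0.49 and Fosl1 by -0.034. At an unadjusted p under 0.05, 15.2% of all genes were higher in NELF, Jund and Junb among them, and 7.37% were lower. With voom weights 119 of the 1139 genes were called higher and 2 lower, and none of the 4 members was called. Jund came closest there (1.23, limma adjusted p = 0.0589). Every NELF library was above every Integrator library at 9.83% of the genes and at none of the 4 members. The median difference over all 1139 genes was -0.07, against 0.94 over the 4 members. With every library scaled instead to its sites within 1 kb of protein-coding starts, the median over all genes was -1.63, 68.5% of the 1139 genes were called lower in NELF, and all 4 members had negative differences, each less negative than that median. Fosl1 (-1.28, adjusted p = 0.0282) was the 1 of the 4 among the genes called. With no minimum on sites, Jun had a difference of 1.37 ± 0.70 (adjusted p = 0.648), Fos of -0.16 ± 0.68 (adjusted p = 0.920) and Fosb of 0.06 ± 0.74 (adjusted p = 0.977).

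**Figure D3:**
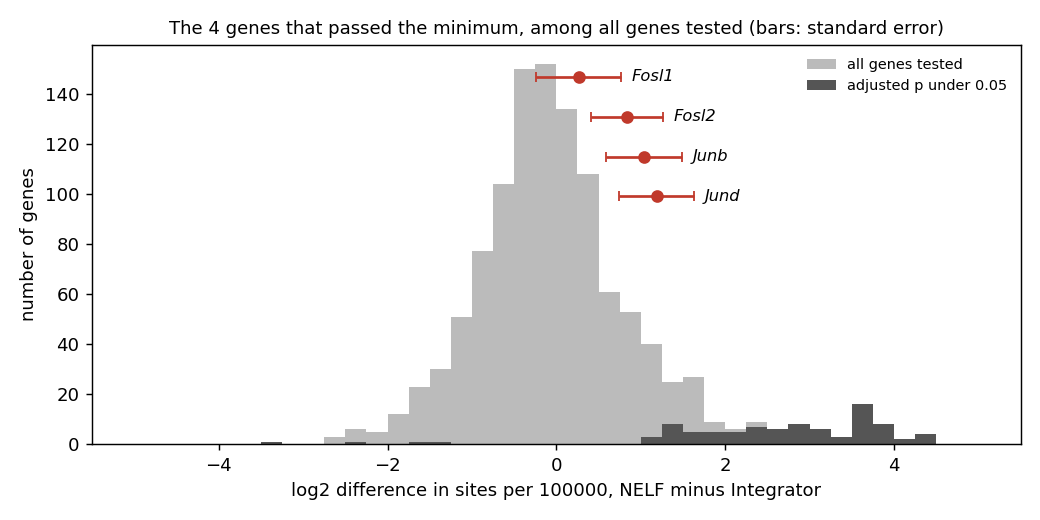
Number of genes by log2 difference of sites per 100000, NELF minus Integrator, for the 1139 genes tested (light) and those with adjusted p under 0.05 (dark); red points are the 4 members that passed the minimum, with standard errors as bars and at heights that carry no value. Jund (1.19), Junb (1.04) and Fosl2 (0.84) lie to the right of the centre of the distribution (median -0.07), and Fosl1 (0.27) near it.

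Within 1 kb of annotated starts, 63.6% of the 55 starts with at least 5 sites per library on average were higher in NELF and 0% were lower (70.9% higher at an unadjusted p under 0.05). Junb was the single member among the 55. It had 14.5 sites per 100000 within 1 kb of its start in the NELF mean and 7.27 in the Integrator mean, a log2 difference of 0.996 ± 0.702 (limma adjusted p = 0.187) that did not pass, while the median over the 55 starts was 1.78.

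The side of the start was counted in the direction of transcription. Of the members' sites within 1 kb of a start, 19 lay upstream and 37 downstream in NELF, 22 and 30 in SPT5, and 40 and 78 in Integrator. Averaged over libraries, the upstream share was 41.9% ± 26.4 in NELF (SD, n = 4), 42.3% in SPT5 and 41.4% ± 10.9 in Integrator (SD, n = 6). For all protein-coding starts the same shares were 45.5% ± 1.91, 42.4% and 44.2% ± 1.89. The members' means give equal weight to libraries with few sites, such as NELFE (4 upstream, 1 downstream), INIP and INTS11 (1 and 1 each). With sites summed over libraries, the members' upstream share was 33.9% in NELF, 42.3% in SPT5 and 33.9% in Integrator. For all protein-coding starts the summed shares were 45.1%, 42.4% and 44.3%. The lower member shares in NELF and Integrator were not tested. The last 250 bases before the 7 starts held 1 NELF, 5 SPT5 and 7 Integrator sites, and the first 250 bases of the genes 14, 6 and 22. Over all protein-coding starts the first 250 bases also held more sites than the last 250 before the start, 12702 against 9077 in all libraries summed. There the ratio of sites before the start to sites after it was 0.612 in NELF, 0.786 in SPT5 and 0.755 in Integrator. At the members the same ratio was 0.0714 in NELF, 0.833 in SPT5 and 0.318 in Integrator. These ratios rest on few member sites, and the difference was not tested.

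Sites within 1 kb of the start on either side made up 33.2% ± 9.07 of the members' sites in NELF (SD, n = 4), 32.7% in SPT5 and 19.8% ± 5.28 in Integrator (SD, n = 6). Over the 15002 protein-coding genes of at most 30 kb, a limit that all 7 members meet, these shares were 34.8% ± 5.07, 32.3% and 16.2% ± 2.99. The members' mean lay within 1 SD of its own libraries from that of these genes in both NELF and Integrator. Sites on the strand of the gene made up 48.2% in NELF, 52.2% in SPT5 and 49.9% in Integrator.

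The genes differed in where their sites lay. At Jun, 10 of 13 NELF sites were within 1 kb of the start, against 10 of 21 in SPT5 and 8 of 24 in Integrator. BC042782, a processed transcript on the other strand, starts 688 bases downstream of the start of Jun. Sites near these starts therefore cannot be assigned to Jun alone. Gm12703, a processed transcript on the strand of Jun, also starts in the window, 3852 bases downstream of that start. At Fos, 3 of 6 NELF sites, 0 of 15 SPT5 sites and 13 of 35 Integrator sites were upstream, the SPT5 count allowing a share of up to 21.8% (exact binomial 95% limit). Junb had 26 of 45 NELF sites upstream, against 11 of 29 in SPT5 and 55 of 119 in Integrator, and no SPT5 site in its first 1 kb, where NELF had 11 and Integrator 27. At Fosb the few sites lay mostly inside the gene, 12 of the 14 of Integrator among them.

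At Jund 27 of 33 NELF sites were inside the gene, against 17 of 36 in SPT5 and 37 of 79 in Integrator. Beyond the first 1 kb of the gene lay 20 of 33 NELF sites, 9 of 36 SPT5 sites and 30 of 79 Integrator sites. The annotation gives Jund a second, shorter transcript that starts 1219 bases downstream of the first, and 22 NELF, 11 SPT5 and 27 Integrator sites lay within 1 kb of that second start. Gm11175, a predicted coding gene on the other strand, starts inside Jund, and 19 NELF, 14 SPT5 and 33 Integrator sites lay within 1 kb of its start, so the starts share sites and cannot be told apart. SPT5 had 15 of its 36 Jund sites past the end of the gene, against 5 of 33 in NELF and 29 of 79 in Integrator.

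At Fosl1 many sites lay beyond the gene. Past its end lay 25 of 36 NELF sites, 9 of 31 SPT5 sites and 56 of 170 Integrator sites, and within 1 kb of the start of Ccdc85b lay 16 NELF, 6 SPT5 and 19 Integrator sites. Fibp, the other neighbour, starts 4692 bases past the end of Fosl1, so the window cuts short the 1 kb on the far side of that start. Of the sites inside the window, 4 NELF, 0 SPT5 and 20 Integrator sites lay within 1 kb of the start of Fibp. In the gene beyond its first 1 kb there were 3 NELF, 14 SPT5 and 65 Integrator sites.

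**Figure D4:**
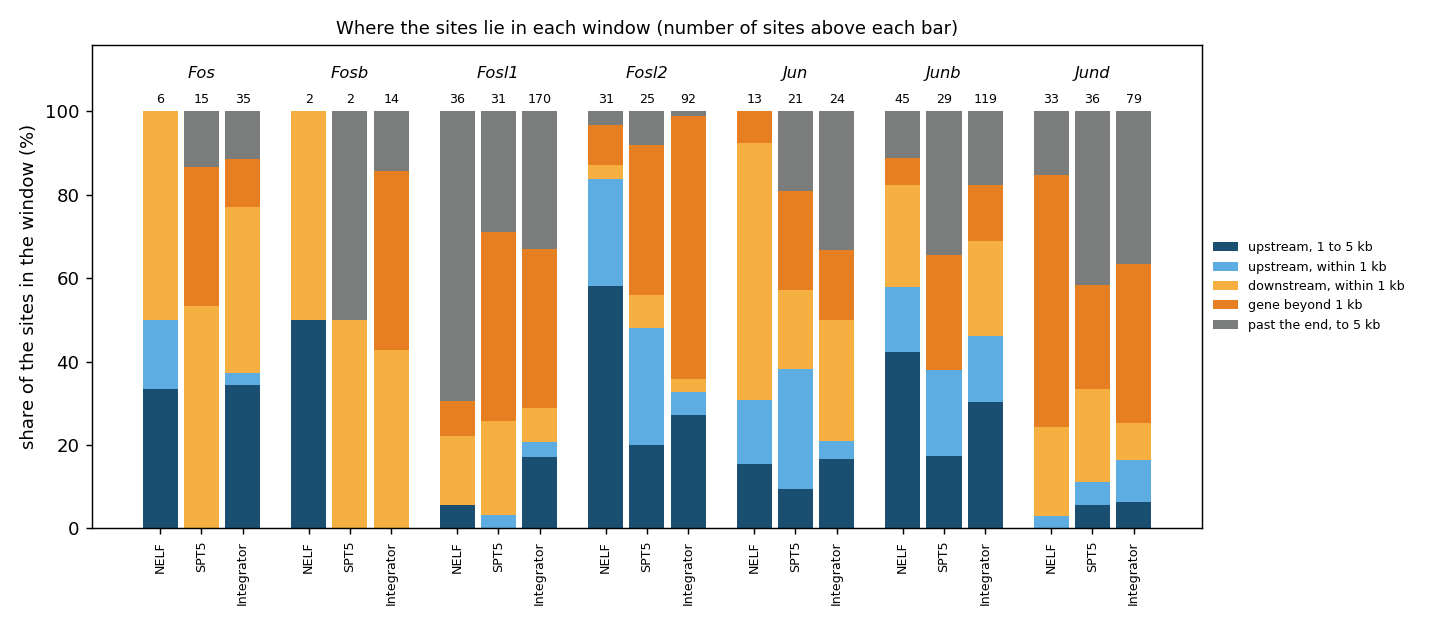
Share of each group's sites by zone of the window for the 7 genes, with the number of sites above each bar, NELF, SPT5 and Integrator side by side. At Fosl2 the upstream zones (blue) hold 26 of 31 NELF sites and 30 of 92 Integrator sites, and at Fosl1 the 5 kb past the end (grey) hold 25 of 36 NELF sites and 56 of 170 Integrator sites.

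At Fosl2 the NELF sites lay mostly upstream of the gene and the sites of the SOSS libraries mostly inside it, 51 of 77 beyond its first 1 kb. INTS9 and INTS11 together had 7 of 15 sites upstream and 7 in the gene beyond its first 1 kb. In the 5 kb upstream of its start the NELF libraries had 9.96 (3 sites, NELFA), 35.5 (11, NELFB), 24.2 (10, NELFCD) and 10.7 (2, NELFE) sites per 100000, SPT5 had 14.6 (12), and the Integrator libraries had 9.34 (9, INTS3), 0 (INIP), 6.37 (12, NABP1), 2.27 (2, NABP2), 2.54 (5, INTS9) and 5.89 (2, INTS11). Every NELF library was above every Integrator library, NELFA (9.96, 3 sites) by a small margin over INTS3 (9.34), as they were in 44.9% of the 185 upstream zones with at least 5 sites per library on average. Of the 2 members among the 185, Fosl2 and Junb, it held at Fosl2. In the gene beyond its first 1 kb the order turned round, with 3.32, 3.23, 2.42 and 0 per 100000 in NELFA, NELFB, NELFCD and NELFE (3 sites in all), 10.97 in SPT5 (9 sites), and 14.5 (INTS3), 8.03 (INIP), 12.2 (NABP1), 13.6 (NABP2), 3.04 (INTS9) and 2.95 (INTS11), 58 sites in all. The NELF range of 0 to 3.32 overlapped with INTS9 and INTS11 and lay below the 4 SOSS libraries. Of the Integrator sites inside the gene 55 were intronic and 6 exonic, and of the NELF sites 3 were intronic and 1 exonic.

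As a description chosen after these values had been seen, and given without a p for that reason, log2(sites per 100000 + 1) in the gene beyond its first 1 kb minus the same in the 5 kb upstream was lower in NELF than in Integrator by a log2 of -3.75 ± 0.88 at Fosl2 (SE of a limma fit), against a median of -0.59 over 983 genes. The value was -3.42 with sites within 1 kb of other coding starts left out, a setting that removes the sites near Gm10463, a predicted gene on the other strand whose start is at -3304 bases from that of Fosl2 and that had 11 NELF, 1 SPT5 and 12 Integrator sites within 1 kb of its start. It was -4.20 to -3.32 without each of 9 libraries in turn. Behind the value at Fosl2 were 26 upstream and 3 gene sites of NELF, and 30 and 58 of Integrator. The whole Fosl2 window held 31 NELF and 92 Integrator sites, 37 of the 92 being of NABP1. Without NABP1 Fosl2 fell below the minimum of 10 sites per library, which was set on the whole window.

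**Figure D5:**
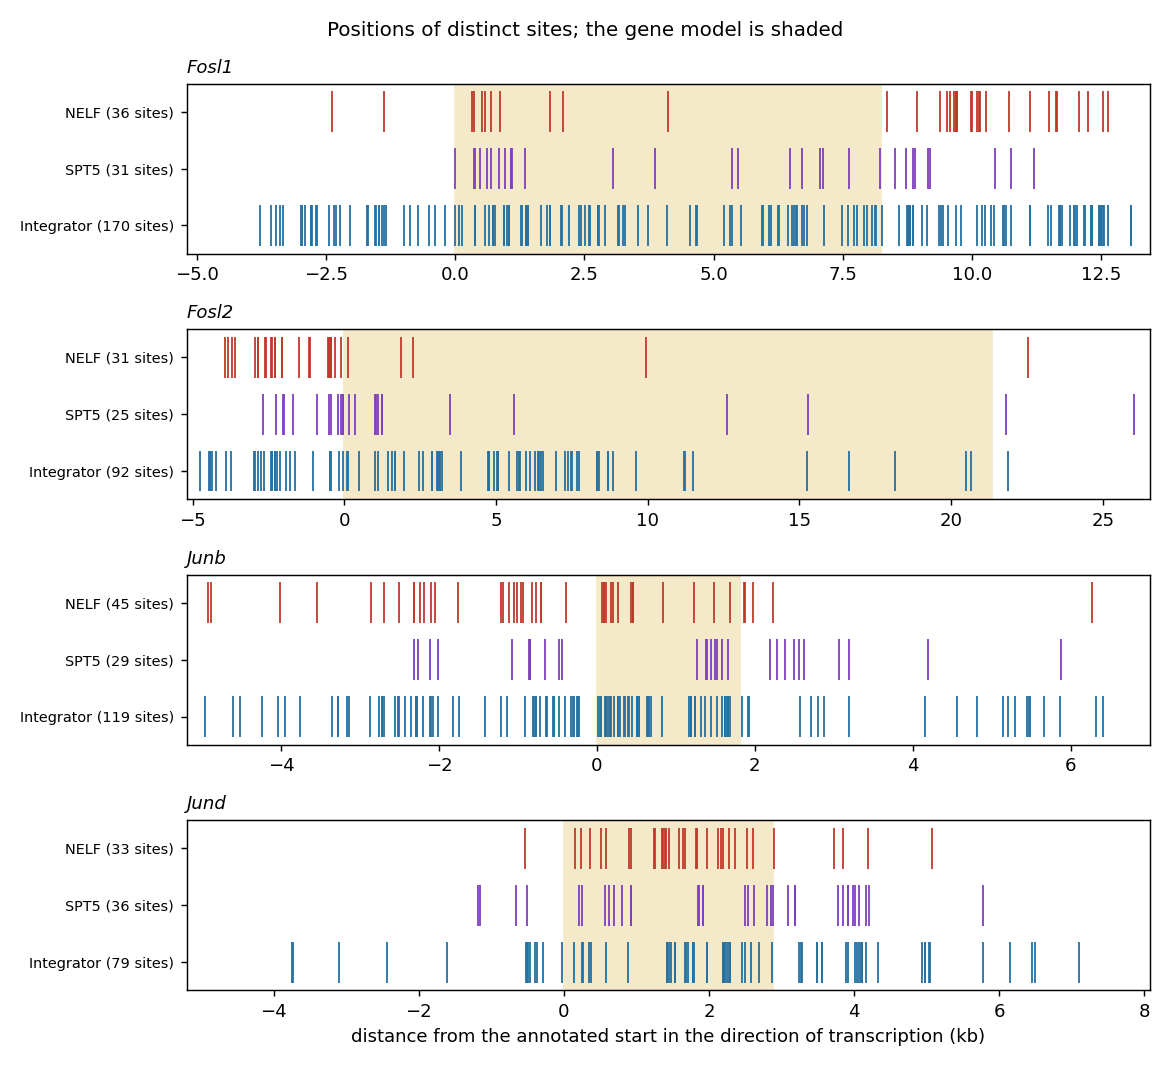
Position of every distinct site at Fosl1, Fosl2, Junb and Jund as distance in kb from the annotated start in the direction of transcription, with NELF at the top, SPT5 in the middle and Integrator at the bottom, and the gene model shaded. At Fosl2 26 of 31 NELF sites lie left of the start, and 58 of 92 Integrator sites lie in the gene beyond its first 1 kb.

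Some positions recurred between libraries. Of 830 positions in the 7 windows 26 (3.13%) were found in more than 1 library, against 5274 of 826194 (0.638%) over the genome, while the members' windows held 29.1 (NELF), 41.9 (SPT5) and 17.8 (Integrator) times the sites of an even spread. Only 2 member positions were found in 3 libraries. They are shown with 12 bases before and 12 after the 5 bases next to the viral end, in capitals, which HIV duplicates on integration, on the strand of the entry in mm9.
Fosl2 at chr5:32436475, plus strand, at -2370 bases from the start, found in NELFCD, INTS3 and NABP1: ctttcctagtaaCGCCCccacttcacaga
Jund at chr8:73225194, plus strand, 679 bases past the end of the gene, found in NABP1, NABP2 and INTS9: ctggggttaaagGTATGtgccatcacacc
Jun had 1 position shared by 2 NELF libraries, in the exon of Jun 445 bases downstream of its start (NELFA and NELFCD). NABP1, NABP2 and INTS9 had a flow cell in common, as did NELFA and NELFCD, while NELFCD, INTS3 and NABP1 had none. An effect of the flow cell on shared positions was not tested.

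The 4 members that passed the minimum varied together across libraries to different degrees. Over the 11 libraries, which share the scaling and differ in depth, Pearson's r of log2(sites per 100000 + 1) was 0.87 between Fosl2 and Junb, 0.84 between Fosl2 and Jund and 0.81 between Fosl1 and Fosl2, and, among the 6 pairs of these 4 genes, was lowest at 0.51 between Fosl1 and Junb. The 5 other genes whose pattern was most like that of the members summed, among 1130 genes, were 2610203C20Rik (r = 0.957), 1110005A03Rik (0.951), Tmem194 (0.942), Srsf2 (0.940) and Neat1 (0.924), the median gene having an r of 0.0998. Srsf2 codes for a splicing factor and shares its window with 1110005A03Rik, and Neat1 is the RNA that builds paraspeckles.

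Other genes of the AP-1 pathway were read from lists. Over all 1139 genes tested 7.55% were called higher and 0.351% lower in NELF. With 1, 5 and 3 genes tested in the lists below, a count of 0 called does not set them apart from that share. Of 15 genes for dimer partners of Fos and Jun proteins 1 passed the minimum, Jdp2 (log2 difference -0.04), and 0 were called. The 3 with the most sites were Atf4, a stress-response activator, with 25.3 ± 9.97 per 100000 in NELF, 30.5 in SPT5 and 8.75 ± 5.06 in Integrator (SD, n = 4 and 6), Jdp2, a repressor of AP-1, with 10.7, 14.6 and 12.4, and Mafg, a small Maf protein, with 9.76, 9.75 and 11.1. Of 20 genes for the kinases and SRF cofactors that signal to AP-1, 5 were tested and 0 called, with a median log2 difference of -0.65. Mkl1, a coactivator of SRF, had 19.7, 13.4 and 30.5 sites per 100000 (NELF, SPT5 and Integrator), Mapk14, the p38 kinase, had 4.36, 15.8 and 21.1, and Mef2d had 14.4, 25.6 and 12.3. Of 15 target genes of AP-1 in fibroblasts 3 were tested and 0 called, with a median log2 difference of 0.31. Hmga1, a chromatin protein, had 42.6 ± 23.8 in NELF, 31.7 in SPT5 and 21.3 ± 15.03 in Integrator (SD, n = 4 and 6), and Vegfa, a growth factor of vessels, had 13.4 in NELF, 29.3 in SPT5 and 11.5 in Integrator.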

How the data were processed

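HIV integration sites were measured in 11 libraries, 1 for each fused protein. Per the labels' protocols, junctions were amplified by nested linker-mediated PCR and paired-end sequenced (GAIIx or HiSeq). The submitters' processing notes name mm9 as the build. No aligner or read filter is given in the sources used here. Deposited entries are, per the file headers, 0-based positions of the first base beyond the viral end with a strand, not counts, so PCR copies could not be counted and were collapsed.

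The 873534 entries gave 831994 distinct sites. These were counted in mm9 windows of GENCODE vM1 models, printed 1-based, with Python 3.11.15 and pandas 2.3.3, and scaled per 100000 sites. Groups followed the fused protein named in the labels. Gene windows (mean of at least 10 sites per library) and start windows (at least 5) were fitted with limma 3.58.1 in R 4.3.3 (trend, robust) on log2(value + 1) with Benjamini-Hochberg adjustment at 0.05. The fits were checked on simulated data. The simulated libraries were independent, with no effect of flow cell or of a part of a complex, so the check does not cover such effects. Intervals are exact Poisson or binomial at 95%, and a count of 0 allows up to 3 sites. Promoter and site letters came from the mm9 genome; only the 6 members with an entry were looked up in the RefSeq promoters (GRCm38.p6), where the start of Junb lay 30 bases further upstream and the other 5 starts were the same.

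Fits over single zones were run after the values had been seen and are not reported as tests. Members and lists were chosen with earlier results of these data known. All 7 members are named, then, per list, the 3 genes richest in sites (1 such gene is not reported here), the 5 genes with the most similar pattern, and the positions found in the most libraries.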

Additional observations from a re-analysis of the deposited data

Results flagged for a closer look

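In each of 24 sets of libraries (the 7 members and their sum, in NELF, SOSS and Integrator) the highest and lowest library were compared with the nearest other library by Dixon's criterion, and 0 exceeded its 95% critical value.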

How the results depend on the processing

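No alternative gave a call for Fosl1, Fosl2 or Junb in the positive direction over gene windows. Jund was called when SPT5 joined the NELF side (1.34, adjusted p = 0.0385, as were 148 of 1233 genes), and over its start with windows of 2 kb each side (1.44, adjusted p = 0.0496), where it passed the minimum and 154 of 274 starts were called with a median of 1.64. Scaling to sites near coding starts turned the gene-window differences to -1.28 (Fosl1), -0.67 (Fosl2), -0.47 (Junb) and -0.28 (Jund), and that of Junb over its start to -0.43; there the counts became 35 genes higher and 780 lower, and 1 start higher and 1 lower. Fosl1 was also negative with 1 kb on each side (-1.26) and with SOSS alone on the Integrator side (-0.034). With SOSS alone Junb (0.54), Fosl2 (0.49) and Jund (1.02) were smaller than in the main comparison. Without 1 library the gene-window differences were 0.012 to 0.69 (Fosl1), 0.59 to 1.01 (Fosl2), 0.73 to 1.23 (Junb) and 0.95 to 1.40 (Jund). The main count of 86 higher genes became 5 with 1 kb on each side and 148 with SPT5 added, and was 64 to 101 without 1 library. The main count of 4 lower genes became 13 with a pseudocount of 4 or a minimum of 5 sites, 18 with no minimum, 2 with 1 kb on each side or voom, 9 with every entry counted, 11 with scaling to sites near coding genes, 16 without the trend and robust settings and 8 with SPT5 added, and was 3 to 11 without 1 library. The 35 higher starts became 162 with a minimum of 3 sites and 154 with 2 kb on each side (2 lower), and were 17 to 49 without 1 library, 17 of 27 without NABP1 and 23 of 56 without NELFB.

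For Fosl2, the gene beyond 1 kb against upstream was -4.28 at a pseudocount of 0.5. With 1 kb on each side the members together had 75.7 sites per 100000 in NELF, and 61.4% (NELF) and 32.0% (Integrator) of sites within 1 kb of a start, in windows that are shorter; without 1 library these means were 122 to 144 (sites per 100000, NELF), 71.6 to 92.4 (Integrator), 28.9% to 35.9% (NELF) and 18.8% to 21.6% (Integrator). The cause of the other changes was not tested. NELF rests on 166 member sites over 4 libraries, and Fosl2 on 31, so differences smaller than those called may have been missed. No paired analysis was possible because each protein had 1 library.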
